A study of Mus musculus with 40 samples.

Results

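The microRNAs (miRNAs) described here come from the imprinted miR-127/136 cluster, a run of 6 hairpins that lie antisense to, or just beside, the gene Rtl1 in the Dlk1-Dio3 domain of mouse chromosome 12. The members were chosen by name and position, by a rule that used no measured value, but with earlier results of these data known. They are 10 of the 1894 mature miRNA entries in the count table: mmu-miR-127-3p and mmu-miR-127-5p, mmu-miR-136-3p and mmu-miR-136-5p, mmu-miR-431-5p, mmu-miR-433-3p, mmu-miR-434-3p and mmu-miR-434-5p, and mmu-miR-337-3p and mmu-miR-337-5p. The species prefix is left off below. The small RNA libraries come from 4 tissues (hypothalamus, liver, brown fat and the gastrocnemius, called muscle below) of 10 male mice aged 8 to 12 weeks. By the design text the mice came from a cross of UCP1;cre and UPRT mice (UCP1;UPRT), with no genotype given for single mice, and all received 4-thiouracil (4TU) at 50 mg/kg by intraperitoneal injection, 4 times at intervals of 48 h. Each tissue gave 5 libraries of its total small RNA (input) and 5 of the RNA recovered on streptavidin after biotin had been added to its thiol groups (IP), which makes 8 groups of 5 and 40 libraries, each from 1 mouse. The Ucp1 promoter drives Cre in brown adipocytes, Cre is meant to switch on UPRT there, and UPRT turns 4TU into a nucleotide that new RNA can take up. The comparison of IP with input asks which miRNAs carry the label, in brown fat and in the remote tissues. The labels name no group without 4TU or without Cre, so RNA bound without the label, or labelled without UPRT, cannot be told apart from the intended signal. The labels put each input into pool 1 and each IP into pool 2, so an effect of the pool cannot be told apart from that of the IP.

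Imprinted genes are read from only 1 parental chromosome. In the Dlk1-Dio3 domain the maternal chromosome makes a long chain of noncoding RNAs (Meg3, the antisense transcript of Rtl1, Rian and Mirg) that hold many miRNA hairpins, and the paternal chromosome makes the protein-coding genes Dlk1, Rtl1 and Dio3. miRNAs that lie antisense to Rtl1 pair perfectly with its mRNA and can direct its cleavage, and in adult animals these miRNAs are best known from the brain. Each hairpin can give a 5p and a 3p mature arm, and the arm that is loaded into Argonaute more often is the more abundant.

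The sequences below are the mature arms on which the results turn, given because the IP separated arms of the same hairpin and because a thiol label can sit only at a uracil. They are RefSeq entries on GRCm38.p6, all on the plus strand of chromosome 12, written 5′ to 3′ with the seed (bases 2 to 8) in capitals.
miR-337-5p (chr12:109585818-109585839): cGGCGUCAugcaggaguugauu
miR-433-3p (chr12:109591781-109591802): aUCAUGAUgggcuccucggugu
miR-127-5p (chr12:109592854-109592875): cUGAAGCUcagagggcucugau
miR-127-3p (chr12:109592888-109592909): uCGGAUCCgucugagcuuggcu
miR-434-5p (chr12:109594528-109594549): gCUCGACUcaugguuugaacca
miR-434-3p (chr12:109594565-109594586): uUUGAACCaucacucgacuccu
miR-136-5p (chr12:109595331-109595352): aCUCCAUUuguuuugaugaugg
miR-136-3p (chr12:109595366-109595387): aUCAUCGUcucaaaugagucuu
All 10 members had a RefSeq sequence and no seed was shared, so the cluster held 10 different seeds. The hairpins run from the start of Mir337 at 109585789 to the end of Mir136 at 109595388, and the starts of Mir337 and Mir136 lie 9.538 kb apart. In the GENCODE annotation of GRCm38, Rtl1 runs on the minus strand from 109589193 to 109600330. Of the members, 8 lay inside its coding exon on the opposite strand, and the full complement of each of these 8 was found in the annotated Rtl1 transcript. The miR-337 arms lay outside Rtl1, between its end and the end of Meg3 at 109571726. Uracils numbered from 5 in miR-127-5p to 10 in miR-136-5p.

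The counts of some members are shared with an entry for the opposite strand of the same hairpin. The miR-3071 entries repeated the values of miR-136 and the entry miR-3544-3p those of miR-337-5p, with correlations of log levels of at least 0.998, and they are not counted as members. Whether each entry holds all of such reads or a part of them, and whether strand was used in counting, is not given in the sources used here. The levels of miR-136 and miR-337-5p against other members are uncertain for that reason, and reads from Rtl1 itself cannot be told apart from these miRNAs where strand was not used. Input libraries held 153036 to 5562487 counts and IP libraries 11928 to 921297. Hypothalamus input 4, the smallest input, stood apart: a list of striated muscle miRNAs (4 of 4 detected) summed to 189080 CPM (counts scaled to a common total of 1000000) there and to 1532 to 2558 CPM in the other hypothalamus inputs, a hepatocyte list (4 of 4) to 22916 CPM against 1155 to 1305 CPM, a brown adipocyte list (3 of 3) to 11333 CPM against 1047 to 2100 CPM, and its neuronal list (7 of 7 detected) to 52490 CPM against 71672 to 208384 CPM. The neuronal list summed to at most 2384 CPM in any input of the other tissues. Liver IP 4 held 11928 counts in all, and 16320 CPM of the muscle list against 452 to 1339 CPM in the other liver IPs. Brown fat inputs also held much of the muscle list, 69098 to 293291 CPM. The part of these admixtures in the results was not tested, beyond leaving out single libraries.

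The cluster was a minor part of the small RNA in brown fat, liver and muscle and a major part in hypothalamus. The 10 members together made up 10.4% ± 3.53 of counts in the hypothalamus inputs (SD, n = 5), 0.259% ± 0.0332 in brown fat, 0.131% ± 0.0233 in muscle and 0.0952% ± 0.0178 in liver. The hypothalamus inputs 1 to 5 held 11.5, 14.6, 10.8, 4.85 and 10.2%, so the low value was that of input 4, and every one of them was far above the highest input of another tissue, 0.304% in brown fat. In bulk tissue, more cells that make a miRNA and more of it per cell cannot be told apart.

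miR-127-3p, the most abundant member in every group, set these totals. In the hypothalamus inputs 1 to 5 its level was 97723, 127181, 87531, 39646 and 88617 CPM, and in the brown fat inputs it was 1746, 2430, 1839, 2193 and 2003 CPM. The groups did not overlap. The mean was 893 ± 196 CPM in muscle and 763 ± 139 CPM in liver (SD, n = 5), and these groups did overlap (678 to 1132 and 604 to 981 CPM). In the fit of the 20 inputs, with edgeR's quasi-likelihood test after TMM scaling (a trimmed mean of log ratios between libraries), miR-127-3p was higher in hypothalamus than in brown fat, with a log2 difference of 5.03 (SE 0.31, adjusted p = 3.74e-12), and of 5.20 without hypothalamus input 4.

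All 9 members that passed the filter on low counts were higher in the hypothalamus inputs than in each other tissue. None of the 9 was lower. Over all 444 entries tested, 84% were called against brown fat (48.9% higher and 35.1% lower). Against liver 80.9% were called (48.9% higher, 32% lower), and against muscle 83.1% (52% higher, 31.1% lower). The differences of the 9 members ran from 2.54 (miR-337-5p) to 5.40 (miR-433-3p) against brown fat, from 3.17 (miR-337-5p) to 5.20 (miR-127-3p) against liver and from 1.07 (miR-337-5p) to 5.17 (miR-433-3p) against muscle. The call of each of the 9 was kept in all 16 alternatives tried for these comparisons, those without hypothalamus input 4 included. miR-337-3p did not pass the filter: its level was 1.63 to 8.24 CPM in the hypothalamus inputs, which overlapped the brown fat inputs, and at most 1.95 CPM in any library of another tissue.

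**Figure D1:**
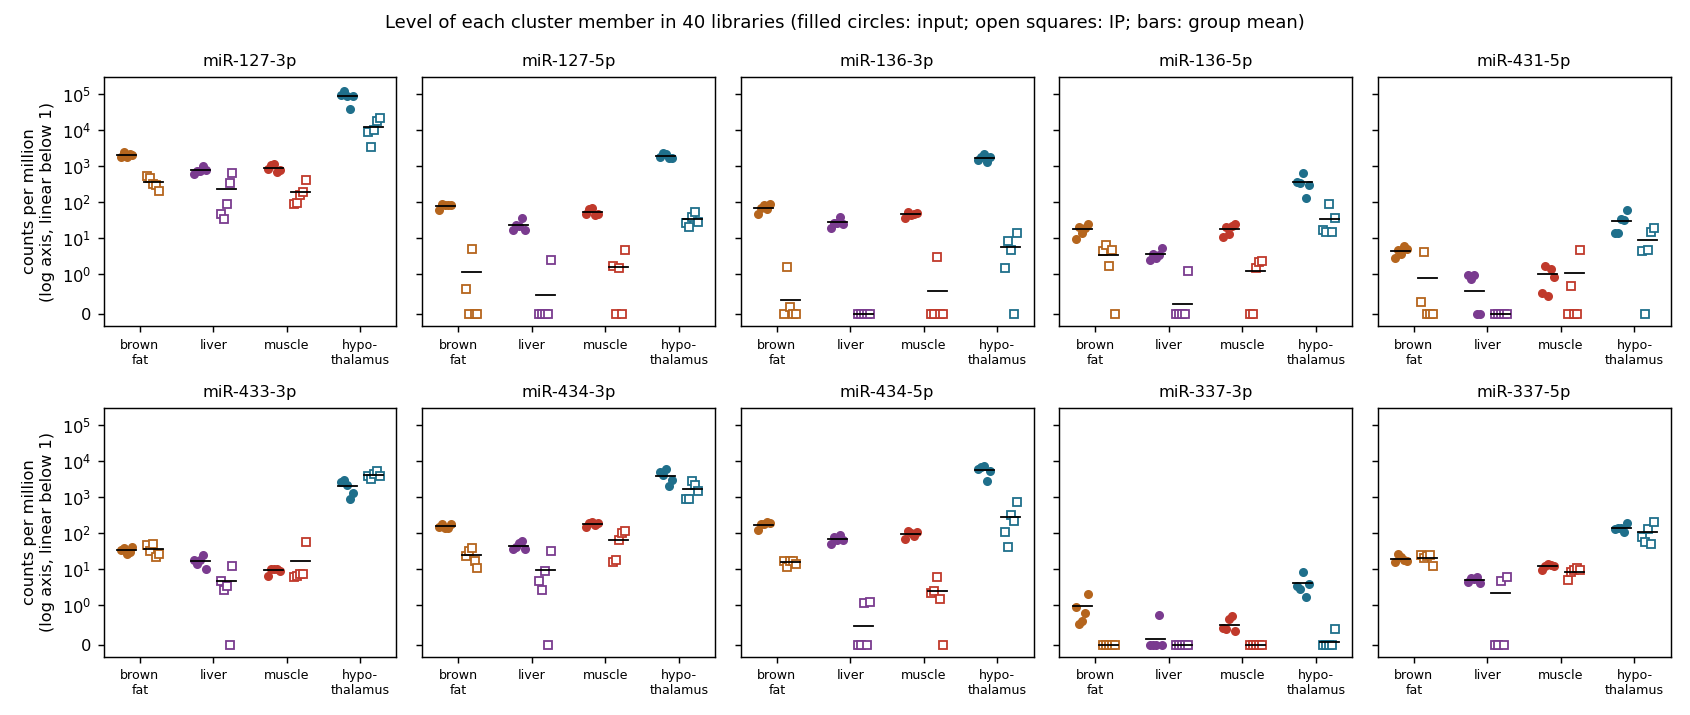
Level of each member in the 40 libraries, in CPM on a log axis that is linear below 1, by tissue; filled circles are inputs, open squares IPs and bars group means of 5 libraries. In every panel the hypothalamus inputs have the highest mean of the inputs. Outside hypothalamus the IP points of miR-127-5p and miR-136-3p lie between 0 and 4.94 CPM. The IP points of miR-433-3p in hypothalamus lie above all its inputs.

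The order of brown fat, liver and muscle was less certain. On the TMM scale 7 of 9 members were lower in brown fat than in muscle and 0 higher, where 40.1% of all entries were called, 22.7% higher and 17.3% lower. miR-434-3p had the largest difference (-2.37, SE 0.21, adjusted p = 1.8e-08, edgeR), at 155 ± 20.5 CPM in brown fat and 181 ± 21.5 CPM in muscle (SD, n = 5). With total count as the only scaling 7 members were instead higher in brown fat and 0 lower. There 365 of all 444 entries were called higher and 7 lower, so that count is near the background. That scaling moved the median over all entries by 2.13, and the striated muscle list alone summed to 630541 to 653627 CPM in the muscle inputs. The direction between brown fat and muscle thus differed between scalings. Liver was lower than muscle for 7 of 9 members, and higher for 0, where 54.7% of all entries were called, 27.3% lower and 27.5% higher. Brown fat was higher than liver for 3 of 9 (miR-127-5p, miR-136-5p and miR-434-3p), and lower for 0, where 45.9% were called, 26.4% higher and 19.6% lower. This count of 3 was 0 without the filter or with DESeq2 and 9 with total count, and it was 1 without brown fat input 1, 2 or 3 or without liver input 1, 2 or 5. Of all 444 entries, 284 were called higher in brown fat than in liver with total count and 97 with DESeq2.

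In the hypothalamus IP the cluster held a smaller share of counts, and its members changed in different directions. The members' share of counts was 1.39, 0.763, 1.79, 2.57 and 2.86% in IPs 1 to 5, all below the lowest input. The list of neuronal miRNAs moved with it, at 16367 to 42235 CPM in the IPs and 52490 to 208384 CPM in the inputs, and its part in the result was not tested. Of 8 members tested, 5 fell and 1 rose. Of all 273 entries tested 75.5% were called, 47.3% lower and 28.2% higher, so a count of this size is near the background. The 5 that fell were miR-127-3p, miR-127-5p, miR-136-3p, miR-136-5p and miR-434-5p, and the 1 that rose was miR-433-3p.

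miR-433-3p, a brain-enriched miRNA of the antisense transcript, was at 2551, 2974, 2201, 896 and 1312 CPM in hypothalamus inputs 1 to 5 and at 3898, 3143, 4246, 5433 and 3878 CPM in IPs 1 to 5. Every IP lay above every input. The log2 fold change was 1.86 (SE 0.27, adjusted p = 6.03e-05, edgeR), against a median of -1.04 over all entries tested. It was called in all 17 alternatives, at 1.05 to 2.08, and it was 1.70 without hypothalamus input 4. Its smallest value, 1.05, came with total count as the only scaling.

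miR-136-3p all but vanished from the hypothalamus IP. It was at 1464, 1842, 2146, 1284 and 1819 CPM in the inputs and at 1.44, 8.26, 4.64, 0 and 14 CPM in the IPs, which is 5 counts over all 5 IPs. The log2 fold change was -7.33 (SE 0.67, adjusted p = 2.25e-06, edgeR). miR-127-5p, the minor arm of its hairpin, had 1648 to 2385 CPM in the inputs and 19.9 to 51.6 CPM in the IPs (-5.18, SE 0.34, adjusted p = 6.44e-07, edgeR). miR-127-3p, the major arm, changed by -2.04 (SE 0.47, adjusted p = 0.00178, edgeR), to 8852, 3470, 10320, 17817 and 22158 CPM. The IPs of all these members lay below all inputs.

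The arms of miR-434 separated as well. miR-434-5p had 5982, 6900, 7299, 2787 and 5202 CPM in the inputs and 109, 39.8, 317, 213 and 738 CPM in the IPs, with no overlap (-3.43, SE 0.66, adjusted p = 0.000513, edgeR). miR-434-3p had 4957, 4145, 5829, 1989 and 2882 CPM in the inputs and 884, 879, 2714, 2145 and 1481 CPM in the IPs, and these overlapped. Its change was -0.53 (SE 0.32, adjusted p = 0.146, edgeR), and it was called lower with edgeR's relative log expression scaling (RLE, -0.69), with total count (-1.29), no filter (-1.16) and DESeq2 (-0.69). miR-136-5p changed by -2.38 (SE 0.51, adjusted p = 0.00107, edgeR) and miR-337-5p had 0.38 (SE 0.49, adjusted p = 0.484). miR-431-5p, at 13.9 to 58.7 CPM in the inputs and 0 to 19.2 CPM in the IPs, and miR-337-3p did not pass the filter.

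**Figure D2:**
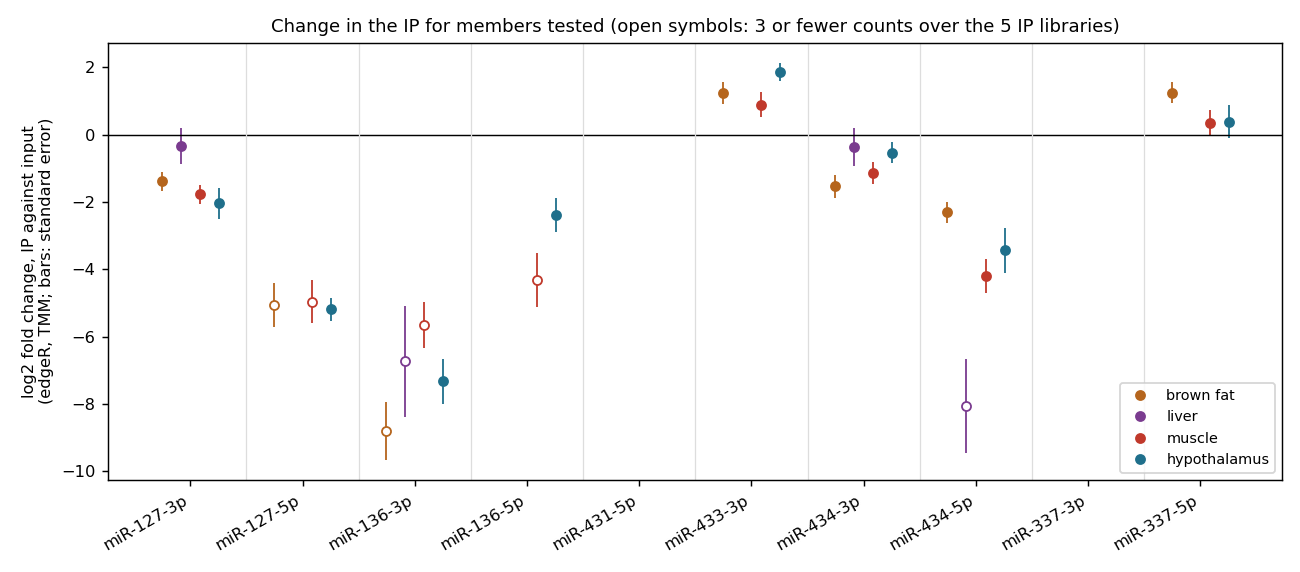
Log2 fold change of IP against input for each member that passed the filter, by tissue, with the standard error (edgeR, TMM); open symbols mark members with 3 or fewer counts over the 5 IPs, whose fitted value depends on the prior count. miR-433-3p lies above 0 in the 3 tissues where it was tested, and the 5p arm of miR-127 and the 3p arm of miR-136 lie lowest or near lowest.

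In brown fat, where Cre is meant to switch on UPRT, miR-127-5p, miR-136-3p and miR-434-5p fell too. Some lists of miRNAs of other cell types were lower in the same IPs. The endothelial list (2 of 2 detected) summed to 23840 to 57145 CPM in the inputs and 1548 to 3030 CPM in the IPs. The leukocyte list (4 of 4) summed to at least 782 CPM in every input and at most 724 CPM in every IP. The red blood cell list (2 of 2) summed to 53.9 to 740.2 CPM in the inputs and 0 to 4.29 CPM in the IPs. The neuronal list went from 1635 to 2384 CPM in the inputs to 288 to 1063 CPM in the IPs. Other lists overlapped between inputs and IPs. The striated muscle list summed to 69098 to 293291 CPM and 50613 to 256680 CPM. The hepatocyte list summed to 1430 to 2089 CPM and 792 to 1863 CPM, and the brown adipocyte list to 94472 to 132331 CPM and 78892 to 173495 CPM. The endothelial list was also lower in each other tissue, at 44.8 to 504 CPM in the IPs and 2307 to 6648 CPM in the inputs. The part of these shifts in the members' changes was not tested. Of 7 members tested 5 fell and 2 rose, where 80% of the 305 entries were called, 43.3% lower and 36.7% higher. miR-127-3p had 2042 ± 275 CPM in the inputs and 361 ± 133 CPM in the IPs (SD, n = 5), with no overlap (log2 fold change -1.38, SE 0.28, adjusted p = 0.000241, edgeR). miR-127-5p had 555 counts over the inputs and 2 over the IPs, and was 36.3-fold lower in the IP on the TMM scale (exact 95% interval 9.99 to 300.2, counting error only); with total count the fold was 78.4. miR-136-3p had 484 counts over the inputs and 0 over the IPs once rounded, at least 21.1-fold lower on the TMM scale, and 45.6-fold with total count, with the IPs set at 3 counts over the group. miR-434-3p (-1.54, SE 0.34) and miR-434-5p (-2.31, SE 0.31) both fell. Their levels were 10.7 to 37.9 CPM and 11.5 to 16.8 CPM in the IPs.

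miR-433-3p and miR-337-5p rose in the brown fat IP, but the calls depended on the scaling and on the filter. miR-433-3p was at 34.5, 39.2, 26.5, 29.1 and 40.1 CPM in the inputs and at 47.3, 31.3, 49.4, 21.4 and 26.8 CPM in the IPs, and these overlapped. Its log2 fold change was 1.23 (SE 0.33, adjusted p = 0.00284, edgeR) and that of miR-337-5p 1.24 (SE 0.31, adjusted p = 0.0017, edgeR). Both were also called with RLE scaling (0.87 and 0.91), and with DESeq2 (0.89 and 0.92). Neither was called with total count as the only scaling (0.086 and 0.13) or with no filter on low counts (0.79 and 0.82). The median over all entries tested was -0.34 on the TMM scale and -1.44 with total count.

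In muscle 6 of 8 members tested fell and 1 rose, where 85.1% of the 268 entries were called, 56.3% lower and 28.7% higher. miR-127-3p had 893 ± 196 CPM in the inputs and 185 ± 129 CPM in the IPs (SD, n = 5), and changed by -1.77 on the log2 scale with SE 0.29 (adjusted p = 4.59e-06, edgeR). miR-127-5p had 1127 counts in the inputs and 2 in the IPs (31.6-fold lower, exact 95% interval 8.73 to 261), miR-136-3p 956 and 1 (53.6-fold, 9.60 to 2120) and miR-136-5p 380 and 2 (10.7-fold, 2.93 to 88.3), all on the TMM scale. With total count these folds were 65.9, 112 and 22.2. miR-434-5p changed by -4.20 (SE 0.50) and miR-434-3p by -1.13 (SE 0.32), both called. miR-433-3p was called higher (0.89, SE 0.38, adjusted p = 0.0322, edgeR) on 21 IP counts, but muscle IP 5 held 54.6 CPM and the other 4 IPs 5.97 to 7.20 CPM. Without muscle IP 5 the value was 0.54 with adjusted p = 0.233 (edgeR), and with total count -0.020. The call was also lost without muscle IP 1 (0.67) or IP 2 (0.88), and miR-433-3p did not pass the filter without any 1 of the 5 inputs.

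The liver IPs held too few counts for most members, between 4 and 142.5 for all 10 together. Of 4 members tested 2 fell and 0 rose, where 74.5% of the 200 entries were called, 46% lower and 28.5% higher. miR-434-5p had 313 counts in the inputs and 1 in the IPs (19.2-fold lower on the TMM scale, exact 95% interval 3.42 to 761); scaled by total count alone the fold was 64.1. miR-136-3p had 124 and 0, at least 2.54-fold lower on the TMM scale and 8.47-fold with total count. miR-127-3p, with 33.8 to 632 CPM in the IPs, had -0.34 (SE 0.52, adjusted p = 0.557, edgeR). It was called lower with total count (-1.84), RLE scaling (-1.25), no filter (-1.19), the mouse as a block (-1.25) and shared entries once (-1.20). It was also called without liver IP 5 (-1.80), liver input 1 (-1.27) or liver input 5 (-1.21), and over the other leave-outs it ran up to -0.092; without liver IP 4 it was -0.21 and 3 members were called lower. The count of 2 was 4 without liver IP 5 or liver input 1, and 1 without liver input 3 or 4.

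The balance of the arms of a hairpin needs no scaling between libraries. For miR-434 the 3p arm was 45.3, 37.5, 44.4, 41.6 and 35.6% of the counts of both arms in hypothalamus inputs 1 to 5 and 89.0, 95.7, 89.5, 91.0 and 66.7% in IPs 1 to 5. The groups did not overlap, and the mean went from 40.9% ± 4.22 to 86.4% ± 11.3 (SD, n = 5 each; two-sided exact permutation test p = 0.00794, the smallest that 5 against 5 can give; adjusted over the 6 pairs of hairpin and tissue tested, 0.00952). In muscle it went from 65.9% ± 2.07 to 93.2% ± 5.81 with the same exact p, on 12.5 to 34.53 counts in each IP. In brown fat it was 47.7% ± 5.22 in 5 inputs and 61.1% ± 13.4 in the 4 IPs with at least 10 counts, which overlapped (exact permutation p = 0.0952).

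For miR-127, where the 3p arm already made up nearly all counts, the IPs moved further the same way. The 3p share went from 96.2% ± 0.362 to 99.7% ± 0.670 in brown fat, from 94.3% ± 0.352 to 99.2% ± 0.775 in muscle and from 97.6% ± 0.923 to 99.7% ± 0.160 in hypothalamus (SD, n = 5 each). None of these groups overlapped, and the exact permutation p was 0.00794 in each, adjusted 0.00952. When the same mice were paired, the 3p share was higher in the IP of 5 of 5 mice in muscle and hypothalamus and 4 of 4 in brown fat for miR-127, and of 5 of 5, 5 of 5 and 3 of 3 for miR-434. An exact sign-flip test cannot go below p = 0.0625 with 5 mice, 0.125 with 4 and 0.25 with 3, and gave these values.

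For miR-136 the 3p share was lower in the few IPs that could be read. Its 3p arm was 83.6% ± 5.40 of counts in the hypothalamus inputs (SD, n = 5). Only hypothalamus IPs 3 and 5 had at least 10 counts, with 3p shares of 5% and 27.4%, so no test was made. In brown fat and muscle no IP had 10 counts of miR-136. miR-337 was almost all 5p, with a 3p share of 2.72% ± 1.65 in the hypothalamus inputs.

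**Figure D3:**
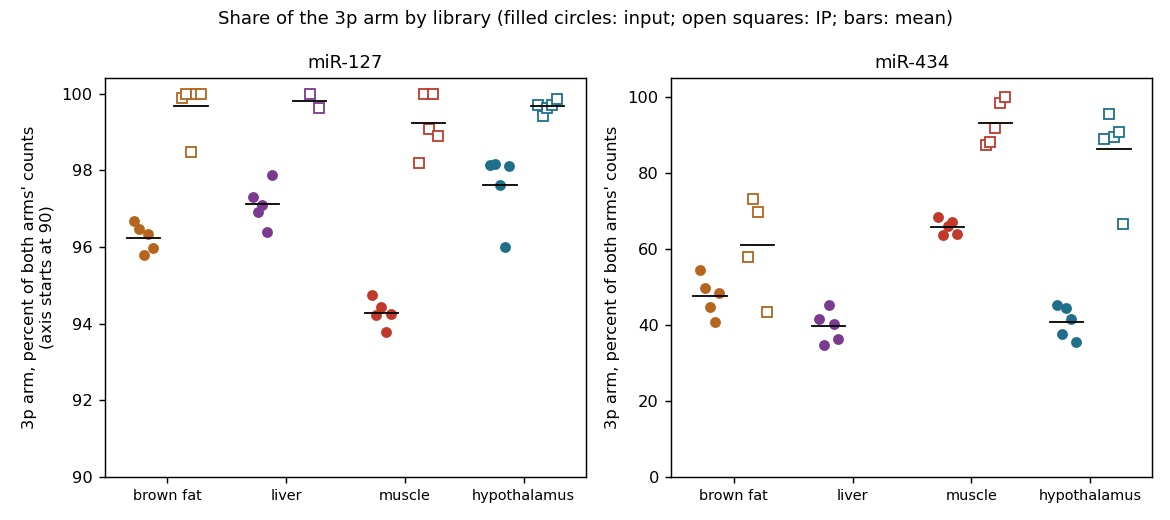
Share of the 3p arm in the counts of both arms of miR-127 (axis from 90 to 100%) and miR-434 (axis from 0), for each library with at least 10 counts over both arms; filled circles are inputs, open squares IPs and bars means. The muscle and hypothalamus IPs of miR-434 lie between 66.7 and 100% and their inputs between 35.6 and 68.6%, while its brown fat IPs overlap the inputs.

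The make-up of the cluster's own counts also needs no scaling, and is given as a description chosen after the values were seen. miR-433-3p was 2.22, 2.04, 2.04, 1.85 and 1.29% of the members' counts in hypothalamus inputs 1 to 5 and 28.1, 41.2, 23.8, 21.1 and 13.6% in IPs 1 to 5. Its share was thus higher in every IP than in any input. miR-127-3p went from 84.3% ± 2.83 to 62.8% ± 12.1 there (SD, n = 5 each). In brown fat miR-433-3p was 1.31% ± 0.237 of the members' counts in the inputs and 7.91% ± 2.51 in the IPs, and miR-337-5p 0.746% ± 0.110 and 4.65% ± 1.23. In muscle these arms were 0.705% ± 0.158 and 4.87% ± 2.70, and 0.927% ± 0.162 and 3.87% ± 1.77. The IP values lay above all inputs for both arms in brown fat and muscle. A share of the members' counts also rises when other members fall, so it does not show a rise in level. In brown fat miR-433-3p averaged 33.9 CPM in the inputs and 35.2 CPM in the IPs, and miR-337-5p 19.4 and 20.6 CPM. In muscle these means were 9.09 and 16.2 CPM for miR-433-3p, and 11.9 and 8.44 CPM for miR-337-5p. The brown fat IPs held 80 to 530.95 member counts a library and the muscle IPs 65.18 to 108.91. In the muscle IPs these included only 2.5 to 6 counts of miR-433-3p and 1 to 6 of miR-337-5p a library. The measure is within the cluster, so no share over all entries stands beside it.

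**Figure D4:**
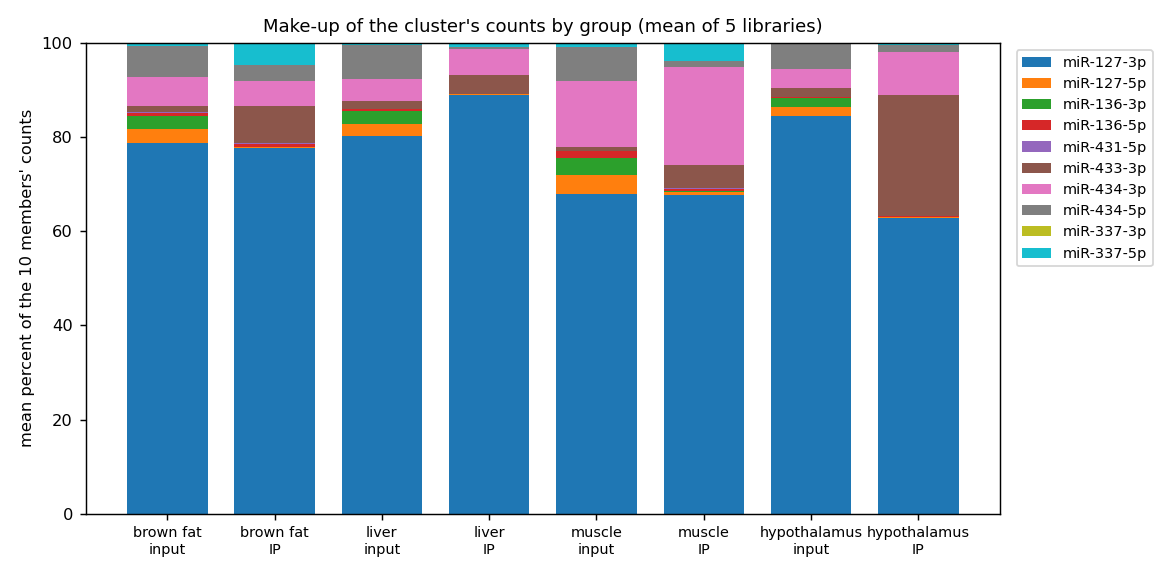
Mean percent of the 10 members' counts held by each member in the 8 groups (5 libraries each; stacked bars sum to 100). miR-127-3p is the largest segment in every group, and the miR-433-3p segment is 1.89% in the hypothalamus inputs and 25.5% in the hypothalamus IPs.

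Between the IPs of different tissues, the hypothalamus was again highest. The 3 members that passed the filter over the 20 IPs, miR-127-3p, miR-433-3p and miR-434-3p, were higher in hypothalamus than in brown fat by 3.75, 5.55 and 4.72 on the log2 scale (SE 0.69, 0.58 and 0.65), where 82.3% of 209 entries were called, 33% higher and 49.3% lower. Against liver the 3 differences were 3.39, 7.44 and 4.73, where 68.9% were called (37.3% higher, 31.6% lower), and against muscle 3.40, 5.87 and 2.06, where 69.9% were called (35.9% higher, 34% lower). Single libraries moved these values: with 1 left out, miR-127-3p ran from 3.46 to 5.15 against brown fat (5.15 without hypothalamus IP 2), from 3.34 to 5.41 against liver (5.41 without liver IP 5) and from 3.08 to 4.23 against muscle. miR-433-3p ran from 5.40 to 6.70, 7.38 to 8.40 and 5.70 to 6.42, and miR-434-3p from 4.48 to 5.90, 4.66 to 6.06 and 1.81 to 2.77, and every one of these fits kept the calls. All 9 differences were called in edgeR's test, with adjusted p of at most 0.00164, so the brown fat IP did not hold more of any of these 3 members than the hypothalamus IP.

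Whether the change in the IP differed between brown fat and a remote tissue was tested as an interaction. Against liver 1 of 7 members was called (miR-434-5p, 7.12, SE 1.95, adjusted p = 0.0411, edgeR), where 8.44% of entries were called (8.12% higher, 0.325% lower), and it rests on the 1 liver IP count. Against muscle 1 of 8 was called (miR-434-5p, 1.62, SE 0.58, adjusted p = 0.0471, edgeR), where 21% were called (12.7% higher, 8.33% lower). Both calls were lost with RLE scaling, no filter and DESeq2. Against hypothalamus miR-433-3p (-2.42, SE 0.52, adjusted p = 0.00125, edgeR) and miR-434-3p (-2.80, SE 0.48, adjusted p = 0.000203, edgeR) were called lower in brown fat, where 34.4% of entries were called, 32.2% lower and 2.13% higher. These 2 values did not hold up: they changed sign in 17 of the 20 fits with 1 library left out, between -2.54 and 1.10 for miR-433-3p, and in the fit with shared entries counted once (0.89 and 0.50). Of all 422 entries tested there, 136 were called lower on the TMM scale, 36 with RLE scaling and 52 with DESeq2. The fits thus differed, and the data do not settle whether the members' IP change differed between brown fat and hypothalamus.

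A thiol label can sit only at uracils, so the number of uracils was set beside the IP change of the members tested. miR-136-5p with 10 uracils and miR-136-3p with 8 fell in hypothalamus (-2.38 and -7.33), and so did miR-127-5p with 5 (-5.18). miR-433-3p, miR-127-3p and miR-434-3p all have 7, and their changes there were 1.86, -2.04 and -0.53. The Pearson correlation of uracils with the change was -0.033 over the 8 members tested in hypothalamus, and that of the percent of G and C 0.45. These are descriptions over few members that share libraries, and arms of 1 hairpin are not independent. No correlation is given for the other tissues, where fitted changes of members with 0 to 2 IP counts depend on the prior count.

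**Figure D5:**
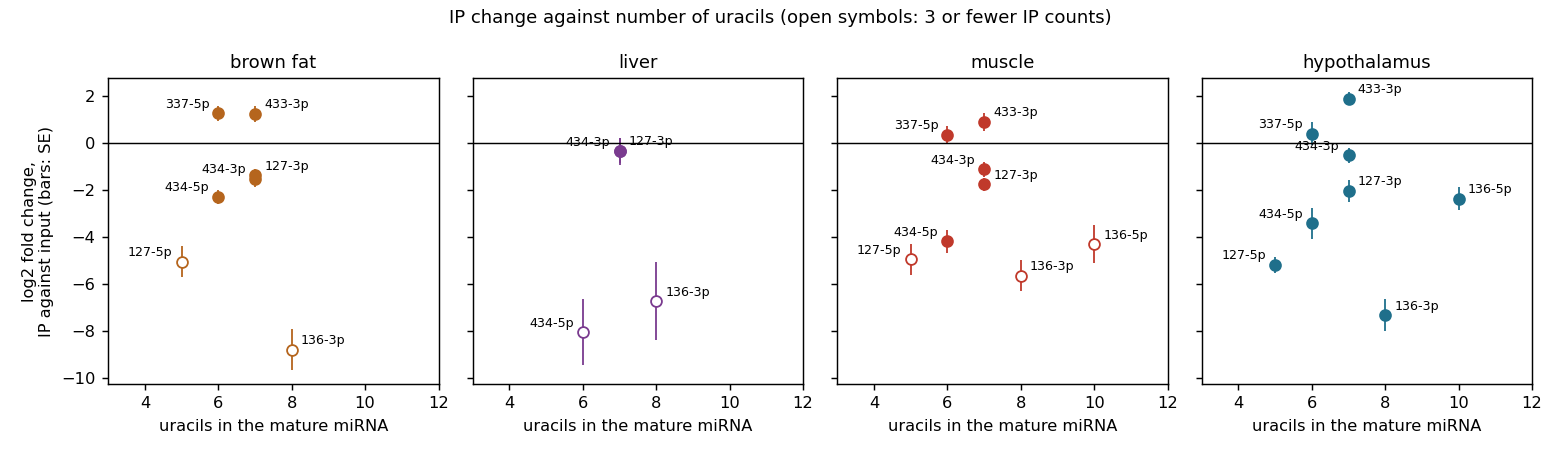
Log2 fold change of IP against input (with standard error) against the number of uracils in the mature miRNA, for the members tested in each tissue; open symbols mark 3 or fewer IP counts. Members with 7 uracils spread from -2.04 to 1.86 in hypothalamus, and those with 8 or 10 do not lie above them.

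The other arms of the member hairpins and the rest of the domain give the setting. miR-431-3p, the opposite arm of miR-431-5p, had 502 ± 180 CPM in the hypothalamus inputs and 67.5 ± 38.7 CPM in the IPs (SD, n = 5), and changed by -2.07 on the log2 scale with SE 0.54 (adjusted p = 0.00397, edgeR), and miR-433-5p from 106 ± 78.7 to 7.0 ± 12 CPM, with 8 IP counts and no test. On the Meg3 and Rtl1 side of the domain, 12 of 12 other entries tested were higher in the hypothalamus inputs than in brown fat, and on the miR-379/miR-410 side 42 of 43. Of all 444 entries tested in that comparison, 48.9% were called higher and 35.1% lower. In the hypothalamus IP 4 of 7 rose and 2 fell on the Meg3 and Rtl1 side, with a median of 1.37, where 28.2% of all entries were called higher and 47.3% lower. There 8 of 33 rose and 18 fell on the miR-379/miR-410 side, with a median of -1.63, beside a median of -2.21 over the 8 members tested. The shares on the miR-379/miR-410 side were near those over all entries. Of the most abundant neighbours, miR-770-3p rose (2.32, SE 0.38) and miR-341-3p fell (-4.61, SE 0.57), while miR-370-3p had 0.47 (SE 0.29, adjusted p = 0.158, edgeR). On the miR-379/miR-410 side miR-541-5p rose (1.88, SE 0.32), and miR-379-5p (-1.31, SE 0.42) and miR-300-3p (-5.06, SE 0.39) fell.

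Outside the domain, the entries whose levels over the 20 inputs of 4 tissues were most like the members' summed level were miR-873a-5p (Pearson r of log levels 0.985; the entry miR-873b holds the same values), miR-298-5p (0.981), miR-490-3p (0.980) and miR-384-5p (0.979). All 4 were highest in the hypothalamus inputs, at 206, 379, 177 and 1054 CPM, and at most 9.49 CPM on average in another tissue. The likeness is over 4 tissue groups that lie far apart, so it describes mainly the step between hypothalamus and the rest.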

How the data were processed

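The authors deposited 1 table of expected counts (estimated counts that need not be whole) for 1894 mature miRNA entries in 40 small RNA libraries; 18.9% of the positive values were whole within 0.001. The submitters' processing notes name fastp, STAR, featureCounts and the build mm10. Not given in the sources used here are versions, annotation, strand setting and how shared reads were treated. All columns mapped to a sample by name (0 left over). Counts were rounded and tested in R 4.3.3 with edgeR 4.0.16 (quasi-likelihood, filterByExpr by group, TMM, two-sided, Benjamini-Hochberg over all entries tested, threshold 0.05). IP and input were compared over the 10 libraries of a tissue, tissues over 20 inputs or 20 IPs, and differences of IP change as an interaction over 20 libraries. Levels are CPM of counted miRNA reads. Arm shares used libraries with at least 10 counts over both arms and an exact permutation test. Folds at 0 counts take 3 counts over the group, and intervals (95%) cover counting error only, since PCR reads carry no molecular identifiers.

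The members and lists were chosen with earlier results of these data known. All members were named, with the opposite arms, the 3 most abundant hypothalamus input entries of each side of the domain and the 5 entries most like the members (Pearson correlation of log2(CPM + 1)). Same-numbered input and IP libraries come from 1 mouse by the labels in 19 of 20 pairs (brown fat 5 joins mice 8 and 10); the correlation of their deviations over 451 entries was -0.13 to 0.47 with a median of 0.09, and over 0.1 in 9. Alternatives were RLE or total count scaling, no filter, DESeq2 1.42.0, the mouse as a block, shared entries once, all 40 libraries, and each library left out. The tests were also run on simulated counts, with the same starting make-up in all groups, balanced rises and falls and a fixed spread. That setting does not cover large differences in make-up between groups, so it does not speak to the choice of scaling.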

Additional observations from a re-analysis of the deposited data

Results flagged for a closer look

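A sample stood far from its group, by Dixon's test at the 95% level, in 5 of 68 groups of levels or arm shares; chance gives about 1 in 20. In brown fat input 1 the level of miR-127-5p was 60.2 CPM, and the next lowest was 80.9 CPM. The 3p share of miR-127 was 98.5% in brown fat IP 3, on 98.5 counts, against 99.9% in the next. The same share was 96.0% in hypothalamus input 4, the library with the muscle miRNAs, against 97.6% in the next. The 3p share of miR-337 was 5.60% in hypothalamus input 3, against 2.52% in the next. The 3p share of miR-434 was 66.7% in hypothalamus IP 5, against 89.0% in the next, and without that library the difference between IP and input was 50.4 percentage points.

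In 4 cases the test of the difference itself found an IP change that differed between brown fat and another tissue. These were miR-434-5p against liver (7.12) and against muscle (1.62), and miR-433-3p (-2.42) and miR-434-3p (-2.80) against hypothalamus, all on the log2 scale. None of these held in every alternative.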

How the results depend on the processing

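Of 595 member values under alternatives that leave out no library, 518 kept their direction and side of the threshold (1 of them with no adjusted p from DESeq2), 37 lost a call, 18 gained one and 22 changed sign; with 1 library left out the numbers were 880, 44, 7 and 40 of 971. Total count scaling moved the median over all entries most, by -1.12 in brown fat, -1.62 in liver, -0.84 in muscle and -0.79 in hypothalamus (IP against input). With it, the entries called higher and lower went from 112 and 132 to 55 and 174 in brown fat, from 57 and 92 to 29 and 135 in liver, and from 77 and 129 to 53 and 153 in hypothalamus. Among the inputs they went from 217 and 142 to 305 and 58 for hypothalamus against liver, from 231 and 138 to 358 and 39 against muscle, and from 117 and 87 to 284 and 26 for brown fat against liver. For brown fat against muscle they went from 101 and 77 to 365 and 7, and for liver against muscle from 122 and 121 to 219 and 57. Among the IPs RLE scaling gave 98 and 62 for hypothalamus against brown fat, in place of 69 and 103, 103 and 44 against liver, in place of 78 and 66, and 101 and 47 against muscle, in place of 75 and 71; total count gave 87 and 67, 129 and 23, and 144 and 25. The cause of the changes below was not tested. Calls over all entries were counted only with RLE scaling, total count and DESeq2. Counts of members under the other alternatives therefore have no background beside them.

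For IP against input, the members called higher in brown fat numbered 0 with total count and without a filter (2 reported). The members called lower in liver numbered 4 with RLE scaling, total count, no filter and shared entries once (2 reported). Of all 200 entries tested in liver, 127 were called lower with RLE scaling and 135 with total count. In muscle the members called higher numbered 0 with RLE scaling, total count, no filter and DESeq2 (1 reported). There miR-337-5p was -0.20 with RLE scaling and with DESeq2, -0.65 with total count and -0.48 without a filter, and miR-433-3p was -0.020 with total count. In hypothalamus miR-337-5p was -0.40 with total count and -0.26 without a filter. With 1 library left out, the members called lower in liver numbered 1 to 4 and those called higher in muscle 0 to 1. Over the same fits miR-337-5p in hypothalamus ran from -0.19 to 0.86.

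Among the inputs, the members called higher in brown fat than in liver numbered 1 with RLE scaling, 9 with total count, 0 without a filter, 0 with DESeq2 and 1 with the mouse as a block (3 reported), and 1 to 3 with 1 library left out. Of all 444 entries, 107 were called higher in that comparison with RLE scaling, 284 with total count and 97 with DESeq2. There miR-434-5p was -0.019 with RLE scaling and -0.018 with DESeq2, and miR-433-3p was 1.04 with total count and 0.025 with the block. For brown fat against muscle, total count gave 7 members higher and 0 lower, with miR-127-3p at 1.19, miR-127-5p at 0.56, miR-136-3p at 0.61, miR-431-5p at 1.90, miR-433-3p at 1.89, miR-434-5p at 0.86 and miR-337-5p at 0.67. In the same comparison miR-431-5p was 0.012 with the block and -0.27 to 0.090 with 1 library left out. For liver against muscle 1 member was called higher with total count, where miR-433-3p was 0.85; with 1 library left out it ran from -0.11 to 0.13. Among the IPs, without a filter, 8 members were called higher in hypothalamus than in brown fat, 7 than in liver and 5 than in muscle (3 reported for each), and 3 to 5 with 1 library left out, where more members passed the filter.

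The interactions were the least stable. Against liver the members called higher numbered 0 with RLE scaling, no filter, DESeq2, the block, shared entries once and all 40 libraries (1 reported), and 0 to 1 with 1 library left out. Against muscle they numbered 0 with RLE scaling, no filter, DESeq2 and all 40 libraries (1 reported), and 0 to 2 with 1 library left out. Against hypothalamus the members called lower numbered 0 with total count, shared entries once and all 40 libraries (2 reported), and 0 to 2 with 1 library left out. Those called higher numbered 4 with shared entries once (0 reported), where miR-433-3p was 0.89 and miR-434-3p 0.50, and 0 to 4 with 1 library left out. Over the fits with 1 library left out miR-433-3p ran from -2.54 to 1.10 and miR-434-3p from -2.90 to 0.80.

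With the mouse as a block and an exact sign-flip test, the differences in 3p share kept their direction, but the test could not reach the threshold: miR-127 3.27 percentage points in brown fat (adjusted p = 0.15), 4.95 in muscle (0.0938) and 2.06 in hypothalamus (0.0938), miR-434 27.3 in muscle (0.0938) and 45.5 in hypothalamus (0.0938). For miR-434 in brown fat it was 17.2 percentage points over 3 mice (adjusted p = 0.25, sign-flip test), and 13.4 without pairing. The miR-434 difference in brown fat was 9.35 to 19.3 percentage points with 1 library left out. At a minimum of 30 counts miR-434 in muscle could not be tested. Depth limits the IPs, where several members rest on 0 to 2 counts over 5 libraries.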
